A study of Mus musculus with 5 samples.

Results

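The genes followed here encode the NKG2, CD94 and NKR-P1 receptors of mouse NKC together with their relatives KLRE1, KLRG1 and CD69. The list holds 9 of the 22350 protein-coding genes on the 19 autosomes and chromosome X: Klrk1, Klrd1, Klrc1, Klrc2, Klre1, Klrg1, Klrb1c, Klrb1f and Cd69. All 9 lie on chromosome 6, and each was taken with 20 kb of sequence on either side. The cells were splenic NKC of ICR mice, isolated by negative selection, grown for 7 days in 1000 units/ml of human IL-2, and then all NKp46+ by the labels, and they were studied by ChIP-seq. The study also describes a sort for DX5+ cells before culture. For the NKp46+ share after culture it gives a lower bound just short of all cells. There were 2 libraries for the transcription factor Runx3, 1 library for H3K4me1, a histone mark found at enhancers, and 2 control libraries made with non-immune serum (NIS), all from fixed cells of the same culture conditions with no genetic change named. The authors joined the Runx3 libraries before they called peaks against NIS, so a peak is a region enriched over serum and carries no height and no spread between libraries. All values below are therefore positions and counts without replicate error, no test was run, and they do not measure expression. Sequencing depth cannot be read from the peak lists. The study reports more filtered reads for Runx3 than for H3K4me1 or NIS in these cells, and the part of depth in the counts was not tested.

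These receptors are C-type lectin-like proteins by which NKC read the surface of other cells. NKG2D (Klrk1) is an activating receptor for stress-induced ligands. CD94 (Klrd1) pairs with NKG2A (Klrc1) to inhibit, or with NKG2C (Klrc2) to activate, on meeting the class Ib molecule Qa-1. KLRE1 is a partner chain of the KLRI receptors, KLRG1 is an inhibitory receptor for cadherins that marks mature NKC, NK1.1 (Klrb1c) is the classical activating marker of NKC, NKR-P1F (Klrb1f) is its relative, and CD69 is induced early on activation and holds lymphocytes in tissue by binding the receptor S1PR1. Runx proteins bind the RUNX motif, written here as TGTGGT and its variants, namely TGTGGC and also TGCGGT and also TGCGGC, on either strand.

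Of the 9 genes, 8 had at least 1 Runx3 peak within the gene or its 20 kb flanks, a region called the window below, against 41.1% of all protein-coding genes. All 9 had at least 1 H3K4me1 peak, against 51.1%. The windows held 16 different Runx3 peaks, numbered R1 to R16 along the chromosome, and 28 different H3K4me1 peaks. NKG2D and NK1.1 were the members with a Runx3 peak centred within 1 kb of a transcription start site (TSS), 2 of 9 against 13.3% of all genes. Klrb1f was the member without any Runx3 peak.

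The sequences that carry these peaks are shown for 8 of the 16. Each line gives 60 bp on either side of the RUNX motif nearest to the peak centre, read 5′ to 3′ on the strand of the gene in the mm9 genome, with every RUNX motif in capitals. They were picked so that the window of each bound member is represented, that of Klrc2 by R16. The 3 peaks centred within 1 kb of a TSS (R6, R7 and R15) are included. Each line names the member with the TSS nearest to the peak.
R15, Klrk1, chr6:129573949-129574069, minus strand: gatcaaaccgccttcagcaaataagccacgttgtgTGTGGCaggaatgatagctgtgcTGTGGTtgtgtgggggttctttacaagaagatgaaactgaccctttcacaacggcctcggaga
R14, Klrd1, chr6:129558555-129558675, plus strand: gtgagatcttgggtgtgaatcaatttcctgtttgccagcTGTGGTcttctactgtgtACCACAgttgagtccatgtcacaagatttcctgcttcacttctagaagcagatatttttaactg
R16, Klrc1, chr6:129630535-129630655, minus strand: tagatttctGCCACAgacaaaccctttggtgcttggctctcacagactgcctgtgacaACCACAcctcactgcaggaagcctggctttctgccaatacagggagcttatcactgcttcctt
R13, Klre1, chr6:129532055-129532175, plus strand: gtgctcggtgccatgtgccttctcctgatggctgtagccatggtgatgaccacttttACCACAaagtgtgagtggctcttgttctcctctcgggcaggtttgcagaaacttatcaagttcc
R3, Klrg1, chr6:122234825-122234945, minus strand: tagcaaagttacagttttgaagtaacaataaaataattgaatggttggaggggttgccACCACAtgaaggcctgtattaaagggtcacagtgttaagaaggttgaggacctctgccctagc
R6, Klrb1c, chr6:128738686-128738806, minus strand: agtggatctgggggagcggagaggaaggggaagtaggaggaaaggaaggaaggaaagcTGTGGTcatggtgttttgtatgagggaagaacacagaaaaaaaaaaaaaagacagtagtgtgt
R7, Klrb1c, chr6:128739802-128739922, minus strand: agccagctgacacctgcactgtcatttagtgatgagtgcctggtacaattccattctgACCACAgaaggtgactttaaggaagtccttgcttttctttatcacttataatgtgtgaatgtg
R11, Cd69, chr6:129223837-129223957, minus strand: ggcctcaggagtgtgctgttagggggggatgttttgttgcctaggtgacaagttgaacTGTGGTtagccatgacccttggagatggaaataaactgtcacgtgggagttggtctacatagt
In all 8 the motif nearest to the centre was TGTGGT or its complement ACCACA. In R15, at the TSS of Klrk1, a TGTGGC and a TGTGGT follow each other on the gene's own strand, whereas in R14 a TGTGGT faces an ACCACA. In R16 the ACCACA is preceded by a GCCACA on the same strand, and in R6 the TGTGGT follows a run of GGAA repeats.

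**Figure D1:**
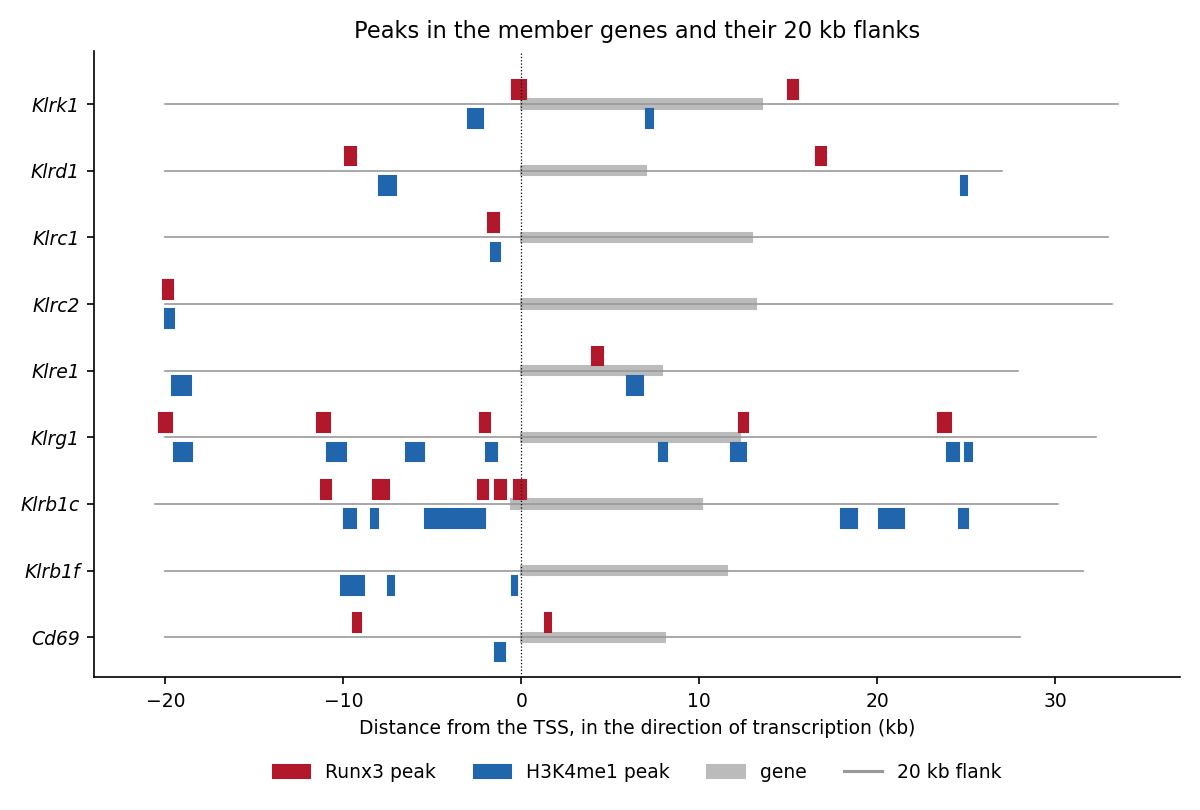
Runx3 peaks (red, above the line) and H3K4me1 peaks (blue, below) in the windows of the 9 genes, with the gene in grey. Positions are distances in kb from the TSS with the largest number of annotated transcripts (1 of 2 at Klrb1f), with transcription running to the right. Runx3 peaks sat on the TSS of Klrk1 and Klrb1c, Klrb1f had none, and neighbouring H3K4me1 peaks at Klrb1c lie too close together to be seen apart.

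Klrk1, which encodes NKG2D, lies at chr6:129560341-129573882 on the minus strand and had 2 Runx3 peaks and 2 H3K4me1 peaks in its window. R15, of 749 bp, was centred 132 bp upstream of a TSS, a distance that 7.15% of all genes match or beat. The TGTGGT shown above lay 5 bp from the peak centre and 127 bp upstream of the TSS. No H3K4me1 peak touched R15. The nearest ones began 1638 bp upstream and 6768 bp downstream of its edges. The second peak, R14, of 578 bp, lay between the 3′ ends of Klrk1 and Klrd1, which are transcribed towards each other, and was 12112 bp from the TSS of Klrd1. It held 4 RUNX motifs, of which 3 were in its central 200 bp, and 4 ETS motifs. R14 had no H3K4me1 peak closer than 7582 bp, so both Runx3 peaks at Klrk1 stood apart from the mark.

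Klrd1, the CD94 gene at chr6:129541800-129548793 on the plus strand, had 2 Runx3 peaks, both shared with a neighbour. R14 was shared with Klrk1, and R13, centred 9613 bp upstream of Klrd1, was shared with Klre1. No Runx3 peak lay nearer to its TSS. Yet the 300 bp from 250 bp before to 50 bp after the TSS held 3 RUNX motifs and 4 ETS motifs, where 45.3% of the same 300 bp of all protein-coding genes had any RUNX motif and 65.5% any ETS motif (AGGAAA and its variants, namely AGGAAG and also CGGAAA and also CGGAAG, on either strand). The CD94 start thus held RUNX motifs without a called Runx3 peak, and how often other genes have as many was not counted. Around the TSS that 2 of its 5 transcripts use, the most for any TSS of Klrd1, no 40-mer had a second copy in the genome. The lowest share of single-copy 40-mers at any of its TSS was 93.1%. The H3K4me1 peak nearest to Klrd1 was centred 7516 bp upstream.

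Klre1, at chr6:129527911-129535842 on the plus strand, held R13 within its body, 4276 bp downstream of its TSS. R13 was centred in an intron, and its single RUNX motif fell in a coding exon 72 bp from the centre. The 2 H3K4me1 peaks of the window were centred 6373 bp downstream and 19102 bp upstream of the TSS. The one downstream began 1340 bp beyond R13 and did not overlap it.

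Klrc1, the inhibitory NKG2A gene at chr6:129616033-129628991 on the minus strand, had 1 Runx3 peak, R16, of 594 bp, centred 1578 bp upstream of a TSS. An H3K4me1 peak of 502 bp covered 73.9% of R16 including its centre. R16 held motifs of all 4 kinds searched, with 2 RUNX, 3 ETS, 1 AP-1 (TGACTCA or TGAGTCA) and 2 T-box matches (AGGTGT), each on either strand. One T-box match overlapped the RUNX motif 26 bp from the centre, so that the same bases were counted for both. The next H3K4me1 peaks lay 53410 bp and 64384 bp from the edges of R16.

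Klrc2, the activating NKG2C gene at chr6:129597514-129610707 on the minus strand, counted as bound only through R16, which straddled the edge of its window 19862 bp from its TSS. With a flank of 5 kb Klrc2 had neither a Runx3 nor an H3K4me1 peak. Its start is nearly a copy of another one. Within 500 bp of its TSS, 26.0% of 40-mers were found once in the genome, a share that 1.11% of the 1171 protein-coding genes of chromosome 6 match or fall below. Over the window the share was 50%. The reads were 40 bp long and the authors kept those aligning to 1 place, so a bare start and a start that unique reads cannot cover cannot be told apart here. At Klrc1 the 40-mers around the TSS were all single-copy, and over its window the share was 60.3%.

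Klrg1 lies at chr6:122220614-122232900 on the minus strand, several Mb away from the other members and outside the NK gene complex. It had 5 Runx3 peaks, a number that 1.54% of all genes match or exceed, and 10 H3K4me1 peaks, matched or exceeded by 4.64%. Its TSS itself had none. R3 was centred 2049 bp upstream and R4 11113 bp upstream, while R2 lay at the 3′ end and R1 23775 bp downstream of the TSS. All 4 of these overlapped an H3K4me1 peak. The share of the Runx3 peak covered was 83.9% for R2, 41.7% for R3, 30.3% for R1 and 27.7% for R4. R5 was the exception. It was centred 19994 bp upstream, straddled the edge of the window and lay 5844 bp from the TSS of M6pr, the gene nearest to it. R5 overlapped no H3K4me1 peak but lay between H3K4me1 peaks, 71 bp from the nearest one on one side and 426 bp on the other.

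Klrb1c, the NK1.1 gene at chr6:128728503-128739233 on the minus strand, also had 5 Runx3 peaks, and 8 H3K4me1 peaks. R6 was centred within the gene, in an annotated intron, and R7 to R10 formed a row upstream of the gene. R6, of 666 bp, was centred 52 bp upstream of the TSS that 3 of its 5 annotated transcripts use, with its TGTGGT 87 bp upstream. That TSS, at 128738659, lies inside the gene. The other 4 distances refer to the TSS at the 5′ end of the gene, at 128739233. R7 lay 587 bp, R8 1595 bp, R9 7303 bp and R10 10390 bp upstream of it. R6 and R7 overlapped no H3K4me1 peak, R8 was covered to 70.0% and R9 to 26.9%, and R10 lay 696 bp from one. Between R8 and R9 lay an H3K4me1 peak of 1814 bp, the widest of the 28 in these windows. R6 held 7 ETS motifs, the highest number among the 16 peaks, of which 5 lay in the stretch shown above. R10 held 4 RUNX motifs, of which the one nearest to its centre was TGCGGT, the other peaks having TGTGGT there except R8 with TGTGGC and R12 with TGCGGC.

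Klrb1f, the NKR-P1F gene at chr6:128995919-129007489 on the plus strand, had no Runx3 peak in its window. The nearest centre was 164713 bp downstream of a TSS, and 73.8% of all genes have one at least as near. It did have 4 H3K4me1 peaks. One of them, of 268 bp and the narrowest of the 28, was centred 402 bp upstream of a TSS, which made Klrb1f the member with H3K4me1 centred within 1 kb of a TSS, 1 of 9 against 14.6% of all genes. The others were centred 7327, 9141 and 9835 bp upstream. The share of 40-mers found once was 96.9% within 500 bp of its TSS and 80.8% over its window, and its part in the lack of a Runx3 peak was not tested.

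Cd69, at chr6:129217342-129225387 on the minus strand, had 2 Runx3 peaks and 1 H3K4me1 peak. R11 lay in an intron 1519 bp downstream of the TSS, and R12 9235 bp upstream. R11 was 334 bp wide, and 0.728% of all Runx3 peaks were as narrow. R12 held 2 RUNX motifs and 4 ETS motifs, all within its central 200 bp. The H3K4me1 peak was centred 1194 bp upstream of the TSS and overlapped neither Runx3 peak. It was 2280 bp from the edge of R11.

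**Figure D2:**
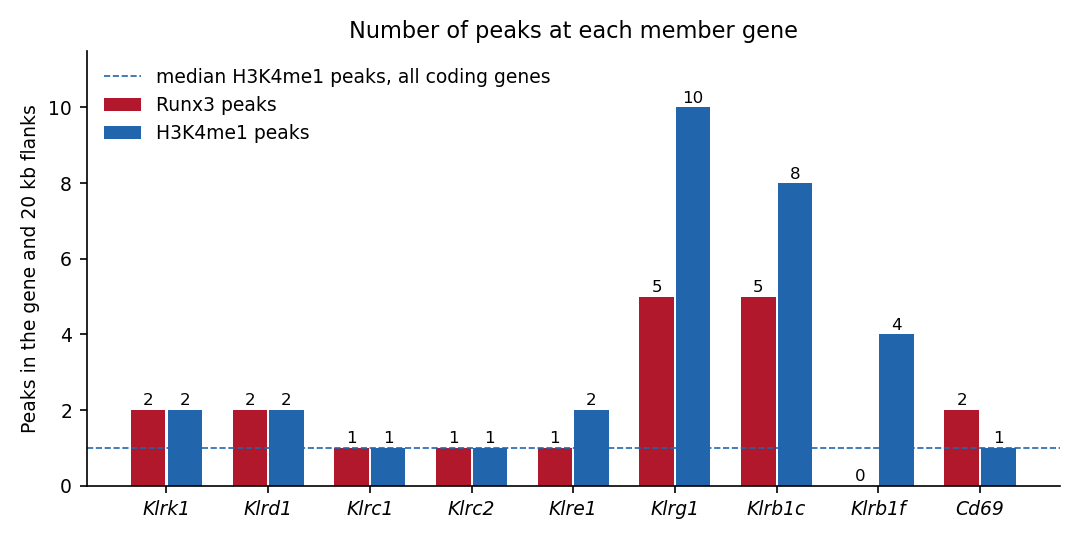
Number of Runx3 peaks (red) and H3K4me1 peaks (blue) in each of the 9 windows, with the median H3K4me1 count of all protein-coding genes as a dashed line at 1. Klrg1 and Klrb1c had 5 Runx3 peaks each, the other members 0 to 2.

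The counts per member were uneven. Runx3 peaks numbered 5 at Klrg1 and Klrb1c, 2 at Klrk1, Klrd1 and Cd69, 1 at Klre1, Klrc1 and Klrc2, and 0 at Klrb1f. The median was 2 for both antibodies, against medians of 0 Runx3 and 1 H3K4me1 peaks over all protein-coding genes. Of the 16 Runx3 peaks, 3 lay in the windows of 2 members each (R13, R14 and R16), so neighbouring members were not independent of one another. The windows were 46994 to 53542 bp long. Among the 3239 genes with windows of such a length 43.1% had a Runx3 peak and 56.3% an H3K4me1 peak. For the 20 kb rule, the farthest Runx3 peak counted lay 19606 bp from Klrg1 (R5), followed by R16 at 19566 bp from Klrc2, and the nearest Runx3 peaks not counted lay 22490 bp from Klre1 (R14) and 23126 bp from Klrc2 (R15). The nearest H3K4me1 peaks not counted lay 20652 bp from Klrc2 and 20809 bp from Klrg1.

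Runx3 and H3K4me1 met at 4 of the 9 genes, Klrg1, Klrb1c, Klrc1 and Klrc2, against 20.5% of all protein-coding genes with an overlapping pair in their window. At Klrc1 and Klrc2 this was the same pair. Counted over peaks, 7 of the 16 (43.8%) overlapped an H3K4me1 peak, beside 48.4% of all 11676 Runx3 peaks. The centre was covered in 3, R2, R8 and R16, beside 28.2% of all. In 10 an H3K4me1 peak lay within 1 kb, beside 61.3% of all. In the Klrk1, Klrd1, Klre1 and Cd69 windows no Runx3 peak touched the mark, even though each of these windows had at least 1 H3K4me1 peak.

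**Figure D3:**
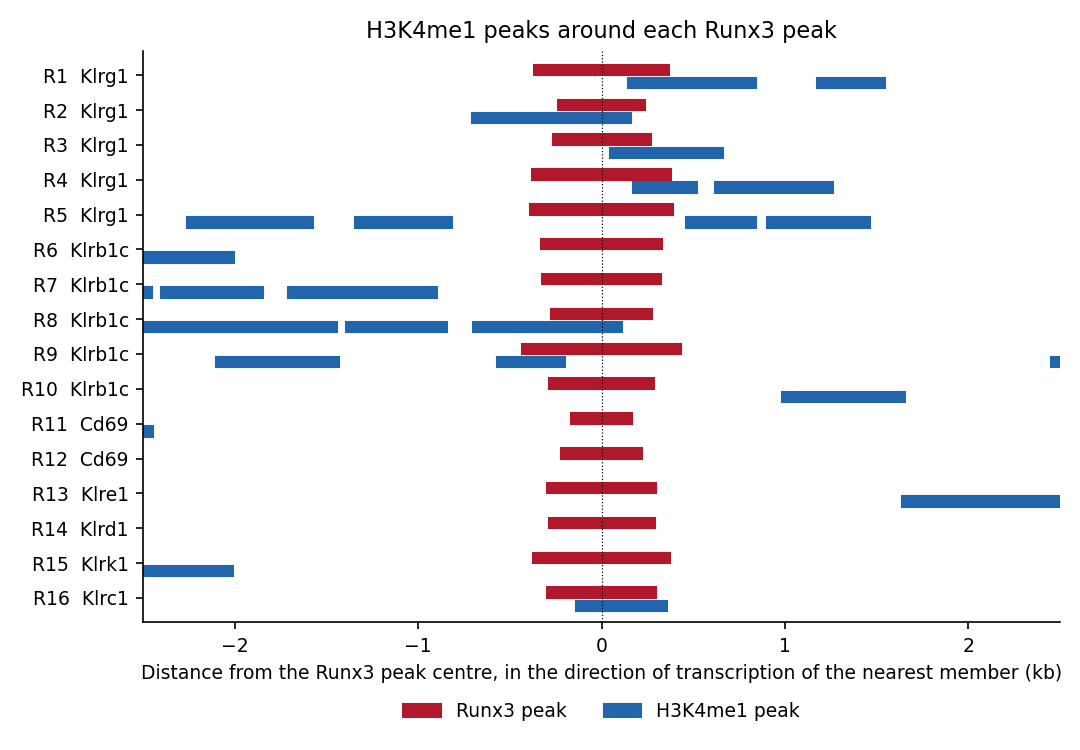
H3K4me1 peaks (blue) within 2.5 kb of the centres of the 16 Runx3 peaks (red), in kb, turned so that transcription of the nearest member runs to the right. Overlap is seen in 7 peaks, the centre is covered in R2, R8 and R16, and no H3K4me1 peak appears for R12 and R14.

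RUNX motifs were present in all 16 peaks, beside 96.0% of all Runx3 peaks and 69.8% of windows of the same width placed 10 kb to either side of all peaks. The corresponding windows beside the 16 peaks held one in 17 of 30. In the central 200 bp, 14 of the 16 had a RUNX motif, beside 77.0% of all peaks and 29.2% of the flanking windows. R1 and R8 were the 2 without, their nearest motifs being 121 bp and 208 bp from the centre. The letters TGTGGT occurred in 14 of the 16 peaks (75.9% of all), TGTGGC in 8 (57.7%), TGCGGC in 2 (19.2%) and TGCGGT in 1 (21.8%). The peaks were 334 to 870 bp wide with a median of 596 bp, narrower than the median of 704 bp of all Runx3 peaks. The part of this width in the shares was not tested.

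Motifs of other factors were found in fewer of the 16 peaks, though ETS matches numbered 33 beside 34 for RUNX. ETS motifs were found in 11 of the 16 peaks, beside 91.4% of all Runx3 peaks and 84.6% of flanking windows. The windows beside the 16 peaks held one in 25 of 30. In the central 200 bp an ETS motif was found in 7 peaks (58.8% of all) and in 18 of those 30 windows. The 5 peaks without any ETS motif were R2, R8, R10, R11 and R13. AP-1 motifs were found in 3, R6, R15 and R16, beside 26.2% of all, and in 0 of 16 central parts (12.6% of all). T-box motifs were found in 5 (38.6% of all). In the 30 windows beside the 16 peaks AP-1 and T-box motifs were each found in 4. A RUNX motif had an ETS motif within 50 bp in 8 peaks (59.2% of all), a second RUNX motif in 7 (45.6%), a T-box motif in 2 (15.7%) and an AP-1 motif in 0 (12.7%). Besides these T-box pairs, 2 more RUNX and T-box matches shared bases, in R4 and R16, since the ends of their letters can overlap. A match is a run of letters and not a shown binding site.

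**Figure D4:**
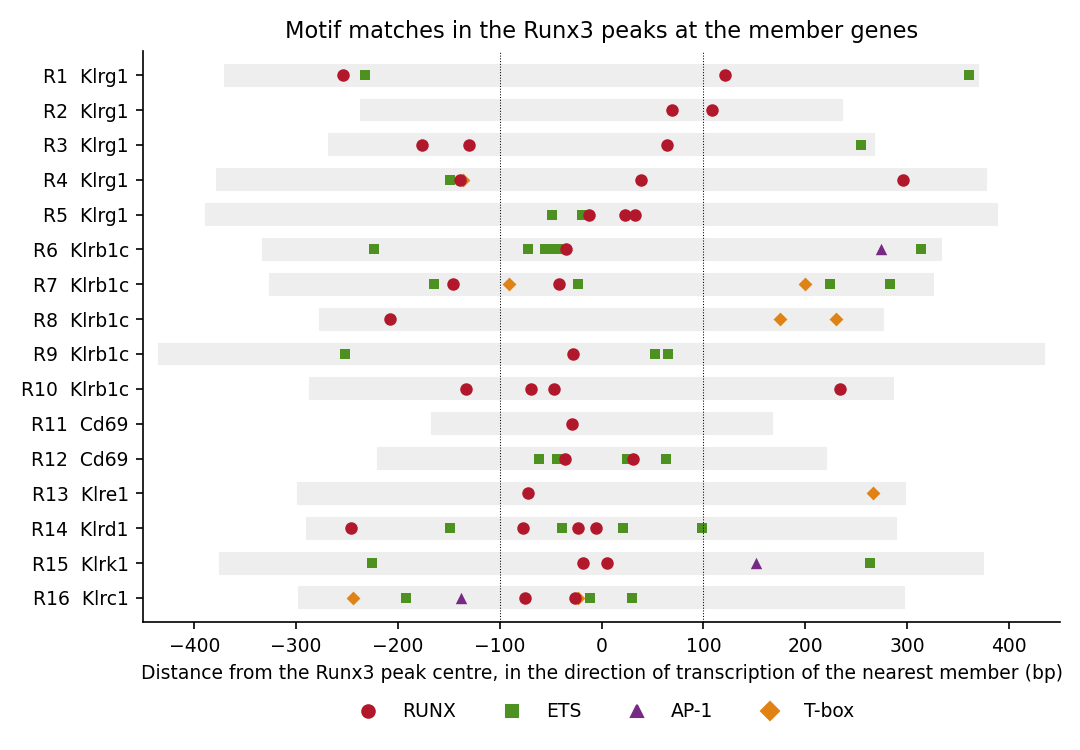
Positions in bp of RUNX, ETS, AP-1 and T-box matches from the centre of each of the 16 Runx3 peaks (grey bars give the peak width), turned to the direction of transcription of the nearest member, with dotted lines at the edges of the central 200 bp. RUNX matches lie inside the dotted lines in 14 peaks and AP-1 matches in none.

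The NKR-P1 genes arose by duplication, and copies of the Klrb1c peak sequences lie beside its relatives. None of the copies printed below overlapped a Runx3 peak. In the searched parts of chromosome 6, around Klrg1 and the NK gene complex, a shorter stretch did. It was 100 bp long, lay 17005 bp upstream of Klrb1b and was 96% identical to part of R10. The sequence of R7 is shown first, with 20 bp on either side of its ACCACA, followed by the aligned stretch at 5 copies on the strand of the aligned gene, again with RUNX motifs in capitals.
Klrb1c, chr6:128739839-128739884, minus strand: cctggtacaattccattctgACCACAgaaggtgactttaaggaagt
Klrb1a, chr6:128574537-128574582, minus strand: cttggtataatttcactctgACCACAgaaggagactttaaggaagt
Klrb1, chr6:128673850-128673895, minus strand: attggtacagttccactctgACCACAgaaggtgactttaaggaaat
Klrb1b, chr6:128777016-128777061, minus strand: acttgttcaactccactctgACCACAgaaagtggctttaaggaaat
Klrb1f, chr6:128995644-128995689, plus strand: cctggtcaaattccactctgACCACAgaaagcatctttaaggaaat
Klrb1-ps1, chr6:129065162-129065207, plus strand: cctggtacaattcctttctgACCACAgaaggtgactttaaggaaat
All 5 copies keep the ACCACA. A 6th stretch, 70.8% identical over 472 bp and 29218 bp from Klrb1-ps1, does not. Identity with R7 was 89.3% over 643 bp at Klrb1a, 92.0% over 602 bp at Klrb1-ps1, 75.3% over 640 bp at Klrb1, 71.0% over 421 bp at Klrb1b and 67.6% over 296 bp at Klrb1f. The share of 40-mers found once was 80.1% in the copy at Klrb1-ps1, 86.6% at Klrb1a, 92.4% at Klrb1, 97.3% at Klrb1b and 99.6% at Klrb1f, and what part alignment had in the lack of Runx3 peaks there was not tested. The copy at Klrb1f lay 351 bp upstream of its TSS. The copies at Klrb1f and Klrb1 overlapped an H3K4me1 peak. R7 itself overlapped none.

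R6, R8 and R9 had such copies too. The copy of R9 nearest to Klrb1f and copies of R6 at Klrb1a and Klrb1-ps1 are shown after the sequence at Klrb1c.
R9 at Klrb1c, chr6:128746541-128746586, minus strand: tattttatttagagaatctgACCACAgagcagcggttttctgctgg
R9 copy at Klrb1f, chr6:128987071-128987116, plus strand: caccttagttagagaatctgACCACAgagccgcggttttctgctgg
R6 at Klrb1c, chr6:128738723-128738768, minus strand: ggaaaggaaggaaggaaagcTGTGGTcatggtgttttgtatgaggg
R6 copy at Klrb1a, chr6:128573053-128573098, minus strand: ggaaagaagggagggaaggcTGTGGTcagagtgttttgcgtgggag
R6 copy at Klrb1-ps1, chr6:129066284-129066329, plus strand: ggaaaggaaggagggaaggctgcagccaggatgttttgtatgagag
The R9 copy shown lay 8619 bp upstream of Klrb1f with 91.5% identity over 492 bp, kept the ACCACA and overlapped an H3K4me1 peak. Another stretch, 64.6% identical to R9 over 458 bp and 31111 bp upstream of Klrb1f, kept the ACCACA and overlapped no H3K4me1 peak. A shorter one, 75.6% identical over 315 bp and 9801 bp upstream, overlapped an H3K4me1 peak. The start of Klrb1a, 89.4% identical to R6 over 668 bp, kept the TGTGGT, and 93.4% of its 40-mers were found once. The copy at Klrb1-ps1, 82.7% identical, no longer read as a RUNX motif. R8, the peak with the lowest share of single-copy 40-mers, had a copy at Klrb1a, 84.1% identical over 627 bp, which kept the motif and overlapped an H3K4me1 peak, with 51.2% of its 40-mers found once. A copy of R8 at Klrb1-ps1, 83.2% identical over 561 bp, did not keep the motif. No Runx3 peak overlapped any of these copies.

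For the NKG2 genes the pattern was similar in sequence and less open to measurement. R16 upstream of Klrc1 had copies upstream of Klrc2 and Klrc3.
R16 at Klrc1, chr6:129630572-129630617, minus strand: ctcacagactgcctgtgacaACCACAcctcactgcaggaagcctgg
R16 copy at Klrc2, chr6:129611371-129611416, minus strand: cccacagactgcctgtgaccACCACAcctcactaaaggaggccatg
R16 copy at Klrc3, chr6:129594104-129594149, minus strand: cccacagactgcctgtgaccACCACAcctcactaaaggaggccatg
The copies were 81.4% and 81.8% identical to R16 over 258 bp and lay 722 bp and 807 bp from the TSS. Both keep the ACCACA, and the stretches printed for Klrc2 and Klrc3 read the same. In either copy 19% of 40-mers were found once, so the lack of a called peak there cannot be told apart from the lack of unique reads.

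Uniqueness of the peaks themselves also varied. In R2 to R5 and R11 to R16 every 40-mer was found once. At Klrb1c the shares were 93.8% in R6, 78.3% in R7, 58.2% in R8, 95.8% in R9 and 77.9% in R10, and it was 93.7% in R1. The median over the 658 Runx3 peaks of chromosome 6 was 100%. A second stretch 93.2% identical to R10 lay 27628 bp downstream of the Klrb1c TSS. The reference genome is that of C57BL/6J, whereas the cells came from ICR mice, and the NK gene complex is known to differ between mouse strains. The part of such differences in the peaks was not tested.

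**Figure D5:**
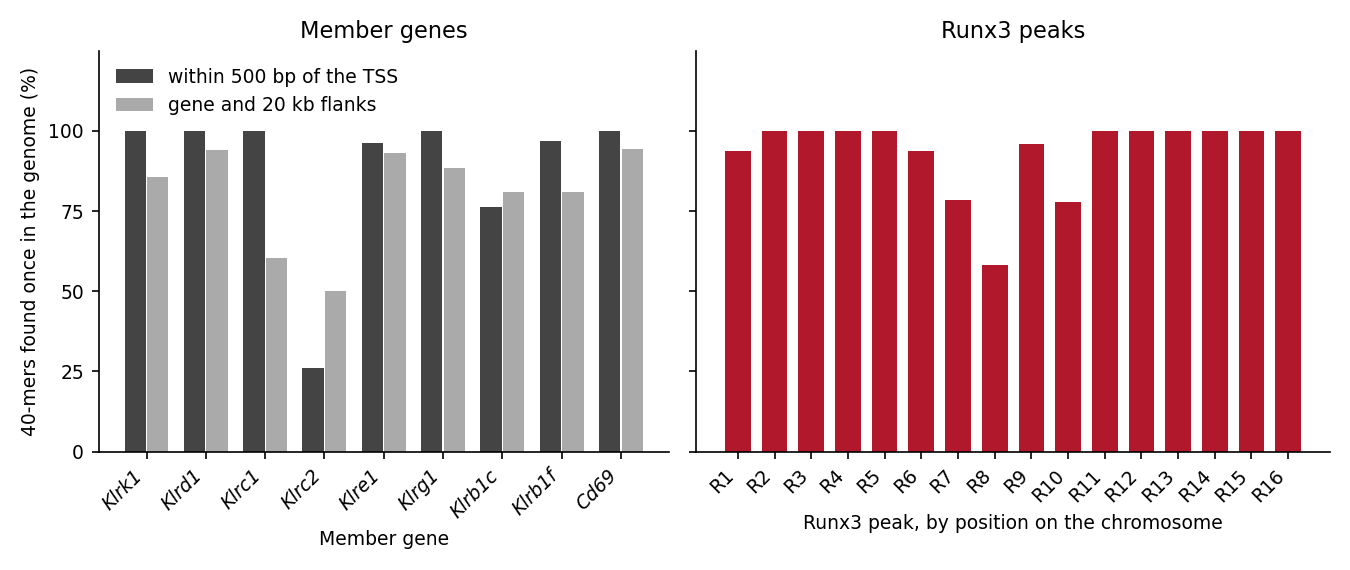
Percent of 40-mers found once in the mm9 genome within 500 bp of the TSS and in the window of each member (left), and in each of the 16 Runx3 peaks (right). The Klrc2 start stands at 26.0% and R8 at 58.2%, while R11 to R16 reach 100%.

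Other genes of these receptor systems were listed for comparison. Of all protein-coding genes, 41.1% had a Runx3 peak in their window, 51.1% an H3K4me1 peak and 13.3% a Runx3 peak at a TSS. The listed genes differ in length, with Fyn spanning chr10:39088661-39285187, and the part of window length in the counts was not tested. Among 19 relatives found in the annotation, mostly of the NK gene complex, 7 had a Runx3 peak in their window and 10 an H3K4me1 peak, with no Runx3 peak centred within 1 kb of a TSS. Klrb1a, whose start resembles that of Klrb1c, had 0 Runx3 and 3 H3K4me1 peaks, and Klrb1b had 6 and 9. Of those 6, R9 and R10 were already counted for Klrb1c. The single Runx3 peaks of Klrc3 and Klri1 were R15 and R16, so these relatives were counted through member peaks alone. Among 8 ligand genes, 6 had a Runx3 peak and 7 an H3K4me1 peak. The window of Raet1c lies inside that of H60b, so its 1 Runx3 peak was counted for both. H2-T23, which encodes the Qa-1 ligand of CD94, had 0 Runx3 and 9 H3K4me1 peaks. All 14 adaptor and signalling genes had both. Hcst and Tyrobp are neighbours with overlapping windows and had 4 Runx3 and 12 H3K4me1 peaks each, so their counts were not independent. A Runx3 peak was centred within 1 kb of a TSS in 5 of the 14. Those 5 were Hcst, which encodes the NKG2D adaptor DAP10, at 133 bp, Fcer1g, which encodes the FcRγ adaptor of NK1.1, at 4 bp, and the kinase and phosphatase genes Lck at 102 bp, Fyn at 165 bp and Inpp5d at 64 bp. Among marker genes of cell types, 6 of 6 for NKC had a Runx3 peak and 5 had it at a TSS. None of the T, B, myeloid and non-blood marker genes had one at a TSS, beside 13.3% of all protein-coding genes. Peaks do not measure expression, so this is no check of the cell label. A Runx3 peak lay in the window of 2 of 3 T, 2 of 4 B, 2 of 3 myeloid and 1 of 4 non-blood marker genes.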

How the data were processed

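ChIP-seq of IL-2-activated splenic NKC was analysed from 2 deposited peak lists, 1 for Runx3 (2 libraries joined by the authors) and 1 for H3K4me1 (1 library). Reads of 40 bp had been mapped by the authors to mm9 (ELAND), those with more than 1 best place were dropped, and MACS was run with NIS as the control. For each peak the deposited lists give its chromosome and its bounds in bp, with no signal, fold or p-value. Starts counted from 0 were moved to 1. Of all columns 0 were left unused.

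Peaks were assigned to a gene of GENCODE M1, which uses the same build, when at least 1 bp overlapped the gene or its 20 kb flanks. A peak was at a TSS when its centre lay within 1 kb of one. Distances refer to the nearest annotated TSS of a gene. Motifs were searched as letters on both strands, and flanking windows lay 10 kb away without Runx3 peaks. Copies of peak sequences were searched with blastn 2.17.0 only in the parts of chromosome 6 around Klrg1 and around the NK gene complex. Copies elsewhere would not have been found. The 40-mers found once were counted over the whole genome on both strands, with the genes and Runx3 peaks of chromosome 6 as background. The counting steps were tested on simulated data. Alternatives were other flanks, overlap rules, peak widths, TSS rules and the central 200 bp. All 9 members are named, and other genes come from lists of relatives, ligands, adaptors and cell markers. The members and lists were chosen with earlier results of these data known. Replicates were not compared, since the libraries were joined. Not all listed genes were in the annotation, and these were left out. Python 3.11.15, numpy 2.4.6, numba 0.67.0, pysam 0.24.0, samtools 1.23.1 and matplotlib 3.10.9 were used.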

Additional observations from a re-analysis of the deposited data

How the results depend on the processing

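Of 19 other settings, 8 kept the count within 1.5 times its value and 11 moved it. The 16 Runx3 peaks became 5 without flanks, 10 with a flank of 5 kb and 9 when peaks narrower than the 25th percentile of all Runx3 peaks were left out. The 28 H3K4me1 peaks became 4 without flanks, 12 with a flank of 5 kb, 52 with a flank of 50 kb and 18 without peaks narrower than the 25th percentile. Runx3 peaks overlapping H3K4me1 fell from 7 to 3 when at least 50% of the Runx3 peak had to be covered. In the central 200 bp, peaks with an ETS motif fell from 11 to 7, with an AP-1 motif from 3 to 0 and with a T-box motif from 5 to 2. Shorter windows, stricter overlap and shorter sequence lower such counts by their construction. The 2 genes with a Runx3 peak at a TSS were counted under both TSS alternatives. The 8 genes with a Runx3 peak became 6 with a flank of 5 kb and 5 without flanks. They became 7 when peaks narrower than the 25th percentile were left out. With a flank of 50 kb they remained 8, a number that a wider window cannot lower. The background restricted to genes with windows as long as those of the members was chosen after seeing the data.

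No paired analysis was possible because the replicate numbers that Runx3 and NIS libraries share are not carried into peaks called on joined reads. Depth and the reproducibility of single peaks cannot be read from the lists, so the lack of a peak means that none was called.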

Other observations

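The NK gene complex, taken from the start of Klrb1a to the end of Klra1 (1778 kb of chromosome 6), held 28 Runx3 and 61 H3K4me1 peaks, or 15.8 and 34.3 per Mb, beside 4.42 and 13.0 per Mb over all chromosomes analysed. The part of gene density in this difference was not tested. Of the 28, 11 lay in the windows of the 8 members in the complex and 17 outside them. These windows covered 291 kb, with 37.7 Runx3 peaks per Mb, beside 11.4 per Mb in the rest of the complex. Among the 17 were peaks at the Ly49 receptor genes, centred 39 bp from a TSS of Klra5 and 197 bp from one of Klra1, and 4 peaks between 10203 bp and 19240 bp from the TSS of Klrb1b. These genes were singled out after their values were seen.

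The Klrc2 start was 99.2% identical over 1002 bp to a second stretch of chromosome 6, at the start of Klrc3. Neither start had a Runx3 peak.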
